A study of Mus musculus with 3 samples.

Results

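Kinesin, cytoplasmic dynein and dynactin genes were measured by RNA-seq of poly(A) RNA in N1E-115 cells. The members were chosen by gene symbol alone: kinesin heavy chains (Kif or Kifc and a number), kinesin light chains (Klc), cytoplasmic dynein subunits (Dync, Dynll, Dynlrb and Dynlt) and dynactin subunits (Dctn). The count table held 67 such genes among 24384 named genes. N1E-115 is an established mouse neuroblastoma line, grown from a tumour of sympathetic lineage and labelled here as a neuroblast of wild-type genotype. All 3 libraries came from untreated cells at day 0, so there was 1 group and no comparison between conditions. Nothing in the labels says whether the libraries were separate cultures, so the spread between them may be technical. The libraries held 17731376, 13942014 and 15432235 counts (replicates 1, 2 and 3). All 8 listed markers of sympathoadrenal neuroblasts were detected, with summed levels of 2219 to 2361 CPM per library (counts divided by the library total and multiplied by 1000000). The summed CPM was 6.46 to 6.82 for 4 glial markers (2 detected), 6.67 to 7.84 for 4 fibroblast markers (2 detected) and 3.37 to 5.31 for 3 immune markers (1 detected), among which Ptprc had no counts.

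Kinesins and cytoplasmic dynein are ATP-driven motors that walk along microtubules. Most kinesins move towards the plus end, which in an axon points to the tip, and carry vesicles, mitochondria and other cargo outward. Cytoplasmic dynein, working with its cofactor dynactin, moves towards the minus end and returns cargo and signalling endosomes to the cell body. Another set of kinesins builds and moves the mitotic spindle, aligns chromosomes and completes cytokinesis, and is made mainly in dividing cells. Motors of both kinds can be made in dividing cells of neuronal origin.

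Most of the motor genes were expressed. A gene was called detected at 1 CPM or more in every library, which 57 of the 67 members reached (85.1%), against 47.3% of all named genes. In such bulk samples fewer expressing cells and less RNA per cell cannot be told apart. Of the 57, 22 had at least 100 CPM in every library, against 2248 of the 11487 detected genes with a known length. Together the members took 0.697, 0.636 and 0.678% of the counts of replicates 1, 2 and 3. Levels of different genes are given below as CPM per kilobase of exon, from the summed exon length of each gene in GENCODE. They are means ± SD over the 3 libraries (n = 3) unless stated otherwise. The median member stood at 11.5 ± 1.07 CPM per kilobase, against 0.226 ± 0.017 for all named genes with a known length and 7.86 ± 0.21 for those detected. By role, the median was 10.2 ± 1.79 for the 15 axonal and cargo kinesins, 5.98 ± 0.71 for the 4 kinesin light chains and 17.7 ± 0.48 for the 12 mitotic kinesins. It was 30.7 ± 0.87 for the 14 genes of cytoplasmic dynein 1, 28.6 ± 1.43 for the 6 dynactin genes and 0.705 ± 0.153 for the 16 remaining motors. Per length, dynein and dynactin genes thus had the highest medians, and the remaining motors, many of them ciliary, the lowest. In CPM not divided by length, the medians were 141 ± 6.93 for dynein 1 and 84.4 ± 5.54 for dynactin. They were 84.9 ± 4.48 for mitotic and 81.4 ± 6.88 for axonal and cargo kinesins, so dynactin then stood level with both.

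**Figure D1:**
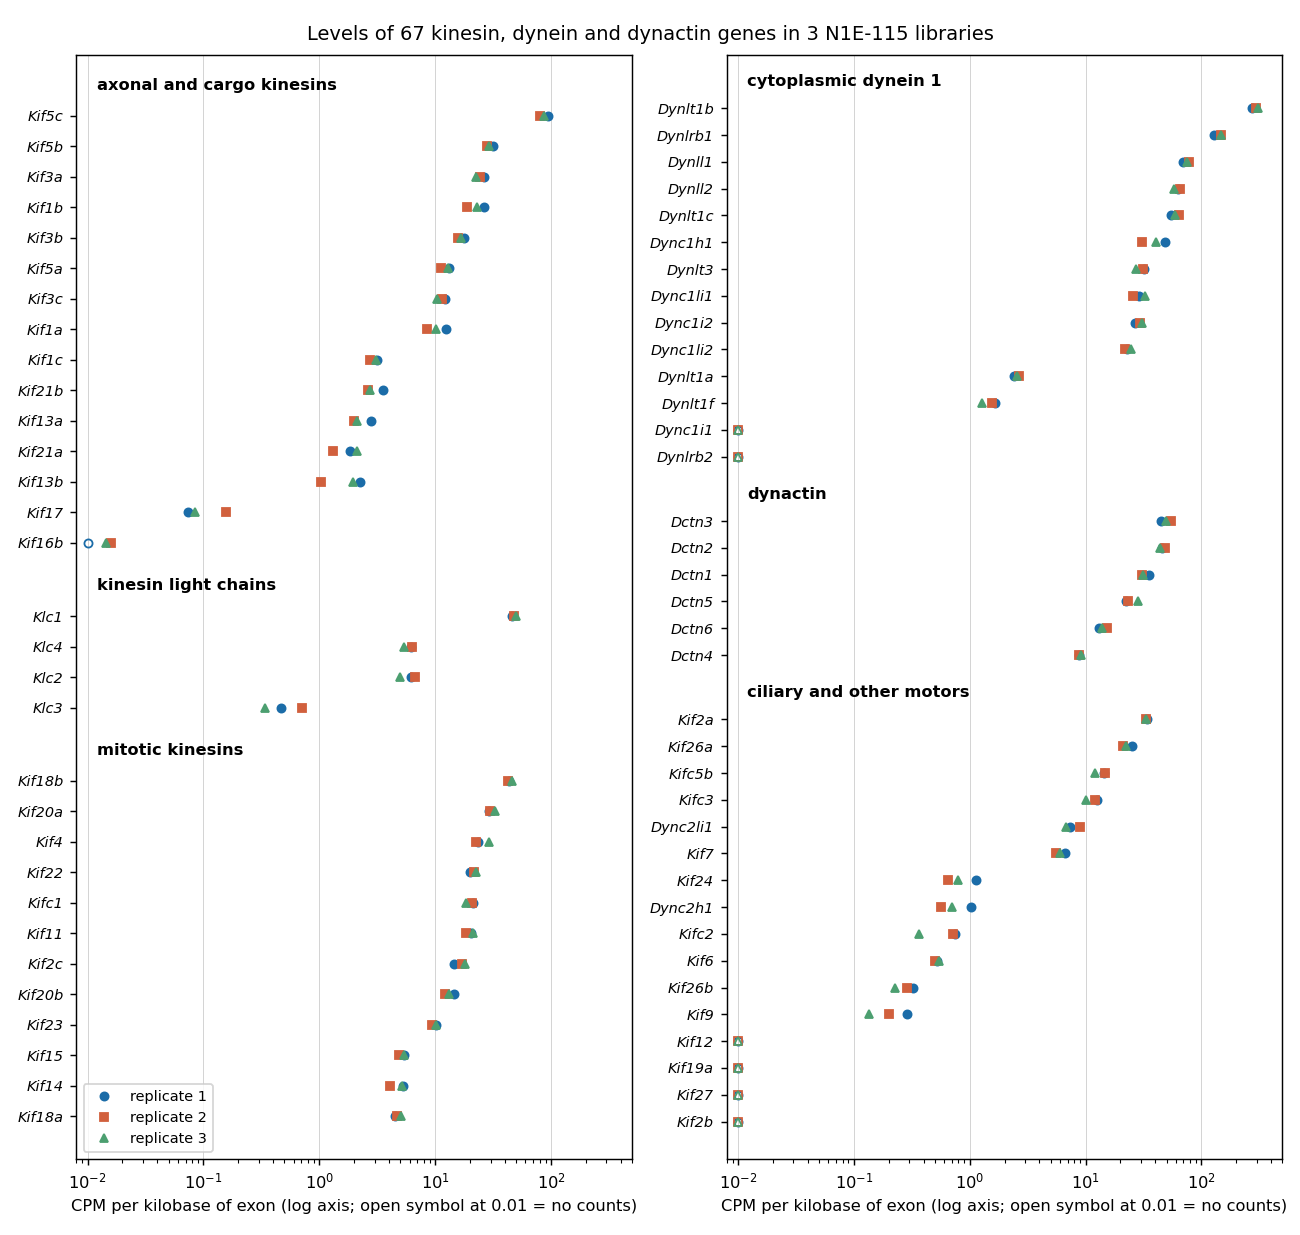
Level of each of the 67 motor genes in CPM per kilobase of exon (log axis), with 1 symbol per library and genes grouped by role. Kif5c, at 80.0 to 93.4, led the axonal and cargo kinesins, and the 6 genes without counts in any library are drawn as open symbols at the left edge.

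Kinesin-1, the main motor of fast outward axonal transport, was represented mostly by its neuronal heavy chain Kif5c. Kif5a, the other neuronal heavy chain, had 13.1, 11.1 and 12.9 CPM per kilobase in replicates 1, 2 and 3. Kif5b, the heavy chain made in most tissues, had 31.4, 27.7 and 28.9 CPM per kilobase. Kif5c had 93.4, 80.0 and 87.1 CPM per kilobase, the highest level of any kinesin heavy chain in the table and at the 97.8 percentile of all genes with a length. The order Kif5a, Kif5b, Kif5c, low to high, held in every library without overlap. The log2 ratio of Kif5b over Kif5c was -1.56 ± 0.03, and that of Kif5a over Kif5c was -2.80 ± 0.05. Per length, Kif5a, Kif5b and Kif5c made up 9.62 ± 0.33, 22.8 ± 0.45 and 67.5 ± 0.23% of the heavy chains. Kif5c lies at chromosome 2, 49619298 to 49774778 (mm10, plus strand), Kif5b on chromosome 18 and Kif5a on chromosome 10.

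The light chains, which bind cargo to kinesin-1, came mostly from Klc1, at 79.3 ± 2.55% of their summed level. Klc2 (5.95 ± 0.92 CPM per kilobase) and Klc4 (6.001 ± 0.50) did not differ beyond their spread per length. In CPM not divided by length, Klc2 (24.6 ± 3.80) was above Klc4 (14.3 ± 1.19) in every library. Klc1, the light chain enriched in neurons, had 46.1, 47.7 and 49.7 CPM per kilobase, far above both in every library. The log2 ratios of Klc2 and Klc4 over Klc1 were -3.00 ± 0.27 and -2.98 ± 0.17. Klc3, known from the sperm tail, held 22, 26 and 14 counts and was not called detected, and 28.1% of its exon sequence lies opposite Ercc2. The summed heavy chains exceeded the summed light chains by a ratio of 2.34, 1.93 and 2.14 per length in replicates 1, 2 and 3, or 1.55 ± 0.15 when each gene was divided by its longest transcript.

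**Figure D2:**
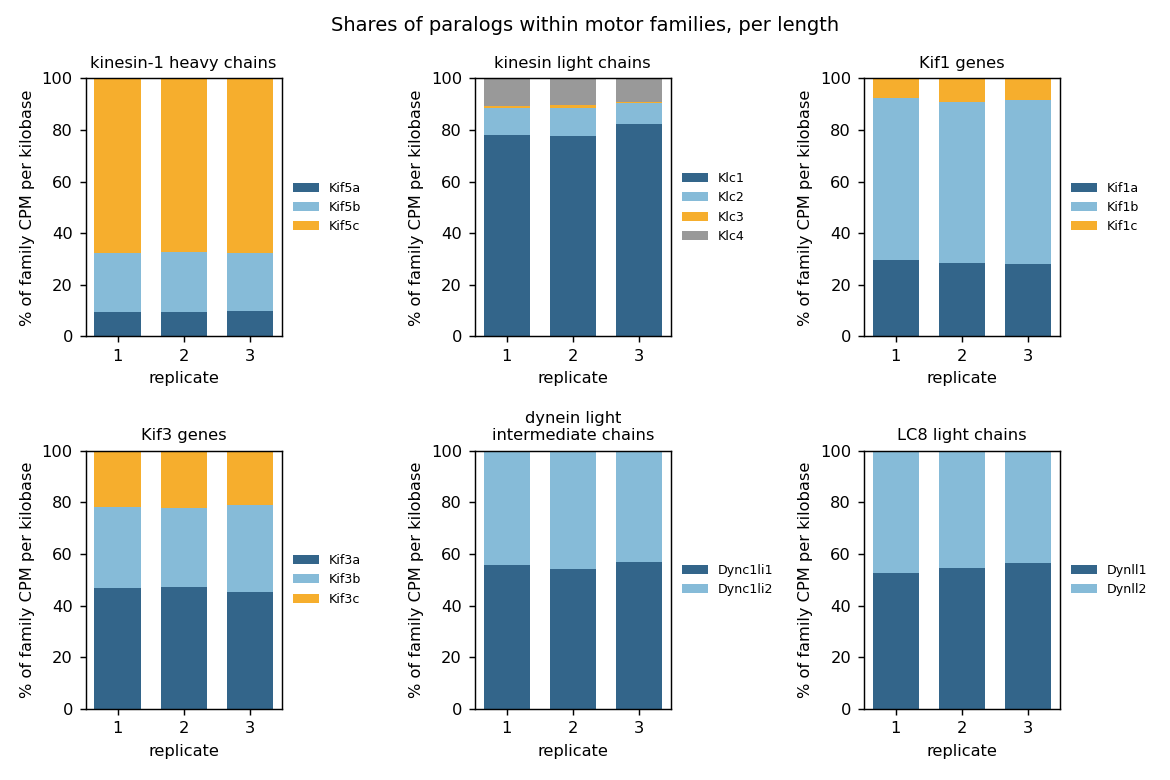
Share of each paralog in the summed CPM per kilobase of its family (percent), with 1 stacked bar per library. Kif5c took 67.3 to 67.8% of the kinesin-1 heavy chains and Klc1 77.6 to 82.3% of the light chains, and the bars of the 3 libraries were alike within each family.

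Kinesin-3 motors carry synaptic vesicle precursors and other membrane cargo, and here Kif1b led them. Kif1a, the neuronal carrier of synaptic vesicle precursors, had 12.4, 8.49 and 10.1 CPM per kilobase in replicates 1, 2 and 3. Kif1b, which also has an isoform that carries mitochondria, had 8260, 4587 and 6240 counts, or 26.5, 18.7 and 23.0 CPM per kilobase, above Kif1a in every library. Both were lowest in replicate 2 and highest in replicate 1. The log2 ratio of Kif1a over Kif1b was -1.13 ± 0.04, and it was -1.73 per kilobase of the longest transcript, since the exons of Kif1b sum to 17608 nt and its longest transcript has 10233 nt. Kif1c, a more widely made relative, was at 2.99 ± 0.22 CPM per kilobase (log2 ratio over Kif1b -2.87 ± 0.16). Kif13b (1.75 ± 0.64) and Kif13a (2.29 ± 0.42), which carries the mannose-6-phosphate receptor to the plasma membrane, were low, and their log2 ratio of -0.42 ± 0.41 (Kif13b over Kif13a) was about its own spread. Kif16b, a motor of early endosomes, held 0, 2 and 2 counts.

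Kinesin-2 is a heterotrimer of Kif3a, Kif3b or Kif3c and the accessory protein Kifap3, used in axons and in cilia. Its heavy chains had Kif3b at 16.7 ± 0.88, Kif3c at 11.3 ± 0.85 and Kif3a, the highest, at 24.4 ± 1.85 CPM per kilobase. Their order per length was the same in every library, with log2 ratios over Kif3a of -0.54 ± 0.10 for Kif3b and -1.10 ± 0.02 for Kif3c. Without division by length Kif3b was instead slightly above Kif3a (log2 ratio 0.11), and Kif3c was close to Kif3a (log2 ratio -0.06 ± 0.02). For Kif3c, 35.3% of the exon sequence overlaps a gene on the opposite strand, and the strand setting of the counting is not given in the sources used here. Kif17, the homodimeric kinesin-2 that carries NMDA receptor subunits in dendrites, held 6, 10 and 6 counts. Of the kinesin-4 relatives of neurons, Kif21b (2.97 ± 0.49 CPM per kilobase) exceeded Kif21a (1.77 ± 0.41), with a log2 ratio of 0.73 ± 0.33.

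The mitotic kinesins were all detected, 12 of 12, at means of 4.76 to 43.7 CPM per kilobase. Kif18b, which shortens astral microtubules, was the highest, with 43.2, 42.2 and 45.7 CPM per kilobase. Kif20a, a motor of cytokinesis, had 29.1, 29.6 and 32.6 CPM per kilobase, and Kif4, which acts on chromosome arms and the spindle midzone, had 23.4, 22.6 and 29.3. These were followed by Kif22 (21.4 ± 1.42), a chromokinesin that pushes chromosome arms outward, and Kifc1 (20.1 ± 1.53), a minus-end motor that focuses spindle poles. Kif11 (19.9 ± 1.46), the motor that separates the spindle poles, could not be ordered against Kifc1, with a log2 ratio of 0.01 ± 0.20 (Kifc1 over Kif11), although it was -1.11 ± 0.20 in CPM not divided by length. Counts of Kifc1 and of its near-identical copy Kifc5b were fractional before rounding, and Kifc5b took 42.4 ± 0.87% of the counts of the pair, so the level of each is uncertain.

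The lower part of the mitotic list held motors with partly overlapping tasks. Kif2c, a depolymerase at centromeres, had 16.5 ± 1.84 CPM per kilobase. Kif20b, a midzone motor of cytokinesis, had 13.3 ± 1.12, against 30.4 ± 1.89 for Kif20a (log2 ratio -1.19 ± 0.16). Kif23, which forms the centralspindlin complex with Racgap1, had 9.89 ± 0.44, but 23.0 ± 1.02 per kilobase of the longest transcript. Kif15, which can support spindle bipolarity beside Kif11, was at 5.18 ± 0.31, against 19.9 ± 1.46 for Kif11 (log2 ratio -1.92 ± 0.03). In CPM not divided by length, the log2 ratios were -0.51 ± 0.17 for Kif20b over Kif20a and -1.37 ± 0.03 for Kif15 over Kif11. Kif14 (4.82 ± 0.62), which acts in cytokinesis, and Kif18a (4.76 ± 0.25), which dampens chromosome movements at the metaphase plate, closed the list and did not differ beyond their spread. The log2 ratio of Kif18b over Kif18a was 3.17 ± 0.05, the widest among the mitotic pairs compared, and 1.74 ± 0.05 in CPM not divided by length. For Kif20a and Kif4, 29.3 and 15.1% of the exon sequence lies opposite the genes Cdc23 (68.3 ± 1.33 CPM) and Pdzd11 (42.2 ± 5.14 CPM).

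Promoter sequences were compared between the roles, since genes of late cell cycle are known to carry a cell cycle genes homology region (CHR element) and CCAAT boxes near their start. RefSeq windows (GRCm38.p6) of 250 bases before to 50 bases after a start were matched for 51 of the 67 members, in 58 windows. The CHR element was searched as TTTGAA, the CCAAT box as CCAAT and an E2F-type site as TTTNNCGC, each on both strands, and matches of different motifs did not overlap in any member window. A CHR element was found in 1 of 13 windows of axonal and cargo kinesins (an internal start of Kif1a), against 17.9% of 32851 windows of all genes. Among mitotic kinesins, 10 of 11 windows held one (all but Kif18a), and those of Kif14 and Kif2c were also at internal starts. The element was found in 0 of 12 windows of cytoplasmic dynein 1, 1 of 5 of dynactin and 3 of 14 of the remaining motors, among them Kifc5b, the copy of Kifc1. A CCAAT box was in 4 of 13 windows of axonal and cargo kinesins and 7 of 11 of mitotic kinesins, against 37.4% of all windows. It was also in 2 of 3 windows of kinesin light chains, 3 of 12 of dynein 1, 3 of 5 of dynactin and 7 of 14 of the remaining motors. Both motifs together were in 0 axonal and 7 mitotic windows and 3 of the remaining motors, against 6.95% of all windows. An E2F-type site was in 1 of 13 axonal and 2 of 11 mitotic windows, against 5.17% of all windows, and in 4 of 12 windows of cytoplasmic dynein 1. These are matches of letters, and binding was not measured.

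**Figure D3:**
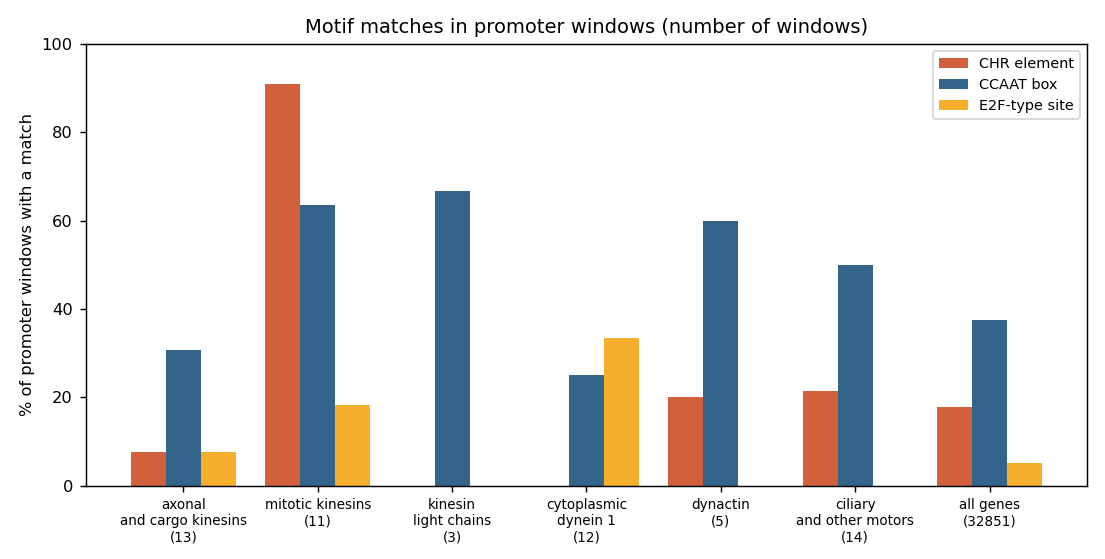
Share of promoter windows with at least 1 match to each motif (percent), by role of the motor gene and for all genes in the promoter table, with the number of windows in parentheses. For the CHR element the axonal and cargo kinesins stood at 7.69%, the mitotic kinesins at 90.9% and all genes at 17.9%.

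The 150 bases before the start are shown for 2 axonal kinesins, Kif5c as the highest and Kif3a as a gene with a CCAAT box alone, and for 3 mitotic kinesins in which a CHR element lies close to the start. Capitals mark matches to any of the 3 motifs on either strand (TTCAAA is the CHR element and ATTGG the CCAAT box read on the other strand), and each is written 5′ to 3′ on the strand of the gene.
Kif5c, chr2:49619136-49619285, plus strand: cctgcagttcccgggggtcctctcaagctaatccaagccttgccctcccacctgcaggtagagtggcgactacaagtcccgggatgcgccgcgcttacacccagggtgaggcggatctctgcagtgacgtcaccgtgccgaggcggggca
Kif3a, chr11:53567219-53567368, plus strand: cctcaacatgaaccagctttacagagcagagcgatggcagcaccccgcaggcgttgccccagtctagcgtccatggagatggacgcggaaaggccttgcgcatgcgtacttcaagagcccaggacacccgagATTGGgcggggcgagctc
Kif11, chr19:37376232-37376381, plus strand: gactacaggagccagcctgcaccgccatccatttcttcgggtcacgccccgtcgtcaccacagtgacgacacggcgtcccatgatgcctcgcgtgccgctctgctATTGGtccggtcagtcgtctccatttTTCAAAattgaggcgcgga
Kif22, chr7:127042421-127042570, minus strand: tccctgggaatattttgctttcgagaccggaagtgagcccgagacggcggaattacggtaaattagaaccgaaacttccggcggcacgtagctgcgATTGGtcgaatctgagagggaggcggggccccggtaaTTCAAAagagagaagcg
Kif15, chr9:122950931-122951080, plus strand: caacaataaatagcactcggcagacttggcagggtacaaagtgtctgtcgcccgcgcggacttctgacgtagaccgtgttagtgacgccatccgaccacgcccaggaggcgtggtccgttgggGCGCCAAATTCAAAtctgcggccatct
In Kif11 and Kif22 the CCAAT box precedes the CHR element, in Kif15 an E2F-type site adjoins the CHR element, and no motif was found in these bases of Kif5c.

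Set against each other, the axonal and cargo kinesins were more unequal and on median lower than the mitotic kinesins. The difference of the list medians, axonal minus mitotic in log2(CPM per kilobase + 0.1), was -0.49, -1.05 and -0.83 in replicates 1, 2 and 3 (mean -0.79 ± 0.28), and so negative in 3 of 3 libraries. The smallest two-sided exact sign-flip p that 3 libraries allow is 0.25, so no test was made. Summed over members, the levels were close, at 226 ± 19.3 CPM per kilobase for the axonal and 215 ± 10.1 for the mitotic kinesins. Kif5c alone gave 38.5% of the axonal sum, whereas the highest mitotic kinesin gave 20.3% of the mitotic sum. Kif5c was the single axonal kinesin above the highest mitotic kinesin, and 5 detected axonal kinesins (Kif1c, Kif21b, Kif13a, Kif21a and Kif13b) were below the lowest mitotic one. The highest member exceeded the lowest detected member 49.7-fold among axonal and 9.19-fold among mitotic kinesins. The size of the difference depends on the treatment of length. It was -0.06 ± 0.09 in CPM not divided by length and -1.18 ± 0.25 per kilobase of the longest transcript. Without division by length the sums lay apart, at 0.181 ± 0.019% of all counts for the axonal and 0.114 ± 0.006% for the mitotic kinesins.

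**Figure D4:**
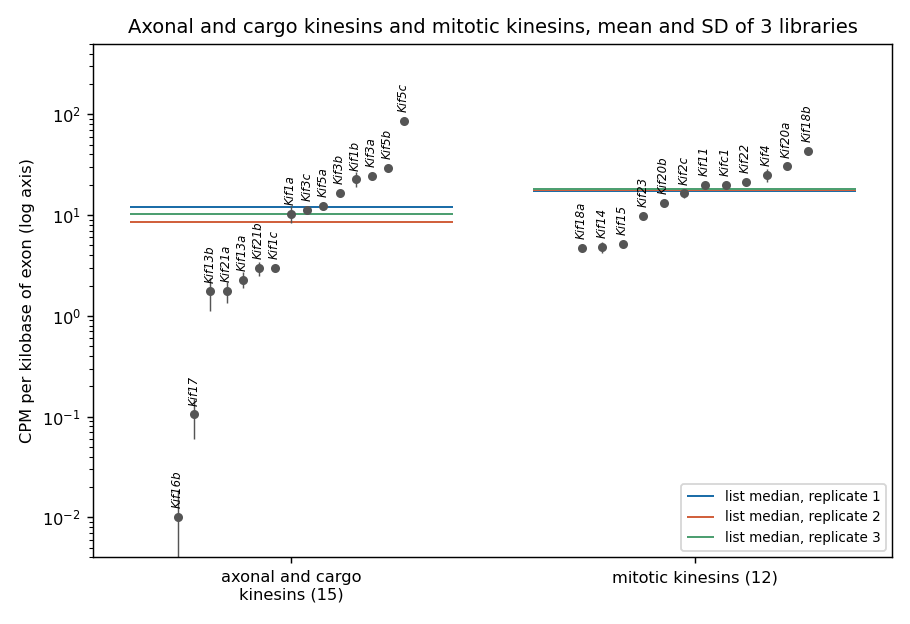
Levels of the 15 axonal and cargo kinesins and the 12 mitotic kinesins in CPM per kilobase of exon (log axis). Points are means of 3 libraries with SD as bars, and horizontal lines are the list medians of each library, which lay between 8.49 and 12.1 for the axonal and between 17.2 and 18.1 for the mitotic kinesins. The SD bar of Kif16b runs below the axis.

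Cytoplasmic dynein 1 was expressed with a full set of subunit classes, but from 1 of 2 genes in the intermediate chains and in the roadblock light chains. The heavy chain Dync1h1, which holds the motor domains, had 13427, 6720 and 9835 counts, or 48.4, 30.8 and 40.7 CPM per kilobase, lowest in replicate 2. Dync1i2, the intermediate chain made in most tissues, had 26.7, 29.2 and 30.7 CPM per kilobase, whereas the neuronal intermediate chain Dync1i1 had no counts in any library. A count of 0 allows up to 3 counts, or 0.169 to 0.215 CPM per library, which puts Dync1i2 at least 485-fold above Dync1i1 per length in every library. Of the light intermediate chains, which bind cargo adaptors, Dync1li2 (23.1 ± 1.35 CPM per kilobase) was below Dync1li1 (29.1 ± 3.40), with a log2 ratio of -0.33 ± 0.08. Without division by length this ratio had the opposite sign (0.31).

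Dynlt1b and Dynlrb1, light chains of dynein with 771 and 1009 nt of exon, had the highest levels per length of any member. In CPM not divided by length they had 225 ± 12.2 and 142 ± 10.5, below Dync1h1 at 626 ± 138. Dynlrb1, a roadblock light chain, had 129, 148 and 146 CPM per kilobase, and its relative Dynlrb2, known from ciliated cells, had no counts, which makes Dynlrb1 at least 381-fold higher in every library. The LC8 light chains, hubs that also serve many other proteins, were at 61.9 ± 3.78 (Dynll2) and 74.3 ± 4.07 (Dynll1) CPM per kilobase. Their log2 ratio, Dynll2 over Dynll1, was -0.27 ± 0.11, and it was -0.92 per kilobase of the longest transcript. The Tctex-type light chains come from a cluster of near-identical genes on chromosome 17, and their counts were fractional before rounding. Dynlt1b and Dynlt1c took 48.5 ± 1.61 and 48.0 ± 1.53% of the counts of the 4 copies, and Dynlt1a and Dynlt1f the rest. For Dynlt1a, 13.6% of the exon sequence lies opposite Tmem181a. The split between the copies is uncertain, and so is the level of 292 ± 15.8 CPM per kilobase for Dynlt1b, whose exons sum to 771 nt against 3777 nt for Dynlt1c. The levels listed for Dynlt1c (59.0 ± 4.39 CPM per kilobase), Dynlt1a (2.55 ± 0.12) and Dynlt1f (1.499 ± 0.19) are uncertain in the same way. All 4 copies together had 464 ± 25.1 CPM. Dynlt3, the X-linked member of the family, was at 30.3 ± 2.60 CPM per kilobase with whole counts, and its log2 ratio over Dynlt1b of -3.27 ± 0.20 carries the same uncertainty.

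Dynactin links dynein to cargo and lengthens its runs, and all 6 of its listed genes were detected. Dctn2, the shoulder subunit dynamitin, had 45.7, 48.7 and 43.7 CPM per kilobase in replicates 1, 2 and 3. Dctn1, the p150 subunit that contacts microtubules and dynein, had 35.2, 30.7 and 31.5 CPM per kilobase, below Dctn2 in every library (log2 ratio of Dctn2 over Dctn1 0.50 ± 0.15, and 0.06 ± 0.15 in CPM not divided by length). Dctn3, also of the shoulder, had 49.4 ± 4.77 CPM per kilobase, whose range overlapped that of Dctn2. The pointed-end subunits were lower, with Dctn5 at 24.7 ± 3.10, Dctn6 at 14.04 ± 1.104 and Dctn4 at 8.91 ± 0.25 CPM per kilobase. The place of Dctn4 and Dctn6 depends on length, since per kilobase of the longest transcript they reached 23.8 and 32.1, beside 26.1 for Dctn5. The level of the dynein heavy chain over Dctn1 was a ratio of 1.37, 1.004 and 1.29 in replicates 1, 2 and 3.

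Of the 16 remaining motors, 11 were detected, and a few of them were as high as the main transport and mitotic motors. Kif2a, a microtubule depolymerase of spindles and growing neurites, had 33.7, 33.0 and 33.2 CPM per kilobase, the smallest relative spread of any detected member (1.14% of the mean). Of its exon sequence, 19.2% lies opposite Dimt1. Its centromeric relative Kif2c stood at 16.5 ± 1.84, against 33.3 ± 0.38 for Kif2a (log2 ratio -1.01 ± 0.18). Kif26a, an atypical kinesin that in mice restrains GDNF-Ret signalling in enteric neurons, had 24.97, 21.1 and 22.3 CPM per kilobase, beside 0.2797 ± 0.051 for its relative Kif26b. Kifc5b, the copy of Kifc1, was listed at 13.7 ± 1.49 CPM per kilobase. Kifc3, a minus-end motor, was at 11.6 ± 1.26 CPM per kilobase. Kif7, which acts in hedgehog signalling at the cilium tip, was at 6.07 ± 0.55.

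Several of the remaining motors were low or without counts, among them the heavy chain of the ciliary dynein. Kif3a (24.4 ± 1.85 CPM per kilobase) and Kif3b (16.7 ± 0.88), also used in cilia, were listed with the axonal and cargo kinesins. Dync2h1, the heavy chain of the ciliary dynein 2, had 1.02, 0.570 and 0.706 CPM per kilobase, against 39.9 ± 8.81 for Dync1h1 (log2 ratio -5.54 ± 0.11). Its light intermediate chain Dync2li1 was higher, at 7.69 ± 1.15. Kif24 (0.862 ± 0.246), Kifc2 (0.607 ± 0.212), Kif6 (0.522 ± 0.019) and Kif26b were detected at low levels. Kif9 held 22, 12 and 9 counts and was not called detected. Kif12, Kif19a, Kif27 and Kif2b had no counts, so that 6 of the 67 members, with Dync1i1 and Dynlrb2, were without counts in every library. The other 4 members below detection were Kif16b, Kif17, Kif9 and Klc3.

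The partner genes of both classes of motor were expressed with them. Of 33 listed adaptors, regulators and further dynactin subunits of transport, 30 passed detection (90.9%), against 47.3% of all named genes. The list stood at a median of 13.3 ± 0.81 CPM per kilobase. The highest were Capzb (107 ± 5.41), a capping protein of dynactin and actin filaments, Clstn1 (68.0 ± 7.23), a kinesin-1 cargo receptor, and Mapk8ip1 (49.6 ± 1.66), a scaffold that binds kinesin light chains. Fez1, a kinesin-1 adaptor of neurons, had no counts, and Rilp and Map7 were below detection. All 20 listed partners of mitotic motors passed detection, at a median of 22.6 ± 1.53 CPM per kilobase. The highest were Racgap1 (75.7 ± 3.47), the partner of Kif23, Cdk1 (58.7 ± 3.24) and Tpx2 (56.7 ± 3.18). Cenpe, the centromeric kinesin-7 whose symbol lies outside the naming rule, was at 14.5 ± 1.41, within the range of the mitotic kinesins. The median of the transport partners exceeded that of all detected genes with a length (7.86), as did that of the mitotic partners.

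Replicates differed little for most motor genes. The median coefficient of variation was 7.86% over the 57 detected members, against 9.80% over all detected genes. These sets were not matched for level, with a median of 63.1 CPM over all 67 members and 37.5 CPM over detected genes with a length. In a test of variation between replicates across all genes (edgeR negative binomial deviance, Benjamini-Hochberg adjusted p under 0.05), 1 of 58 members tested was called, against a background of 0.643% of 11821 genes. At an unadjusted p under 0.05 there were 4 of 58 members (6.90%), close to the 5.90% of all genes. The called member was Kif13b, which carries signalling proteins and membrane cargo, with 29.4, 13.4 and 25.4 CPM in replicates 1, 2 and 3 (edgeR adjusted p = 0.0302). Replicate 2 was the low library, and the other two lay close together. The call was lost without replicate 1 (adjusted p = 0.148) and without replicate 2 (adjusted p = 0.9999). Over all alternatives, its edgeR and DESeq2 adjusted p ranged from 0.0121 to 0.9999. Dync1h1, next in order, had an edgeR adjusted p of 0.371.

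Long motor genes were lower in replicate 2 and higher in replicate 1, as were long genes overall. Replicate 2 was set against the mean of the other libraries in log2 of TMM-scaled CPM. Members with 10 kilobases of exon or more were lower there in 8 of 9 cases, with a median of -0.35, against 86.6% of 1198 tested genes of that length, with a median of -0.22. Kif13b (-1.04), Dync2h1 (-0.60), Dync1h1 (-0.55) and Kif1b (-0.42) were the lowest of the 9, and Kif26b (0.05) was the exception. In replicate 1, set against the other libraries in the same way, 8 of 9 long members were higher (median 0.33). Of the 1198 tested genes of that length, 944 were higher there, with a median of 0.17. Over the 58 members tested, the Spearman correlation of exon length with the difference in replicate 2 was -0.70, beside -0.50 over all tested genes with a length, and with the difference in replicate 1 it was 0.54 beside 0.38. It is a description across genes of the same libraries. By role, the axonal and cargo kinesins, whose exons have a median length of 7406 nt, were lower in replicate 2 in 12 of 13 tested members (median -0.24) and higher in replicate 1 in 13 of 13 (median 0.14). The mitotic kinesins were lower in replicate 2 in 9 of 12 (median -0.11), and cytoplasmic dynein 1 in 4 of 12 (median 0.07). Among all tested genes, 50.5% were lower in replicate 2, and 6122 of 11821 were higher in replicate 1. After the length trend of each library was removed, no member was called, and Kif13b had an edgeR adjusted p of 0.154. Its -1.04 in replicate 2 stood below the medians of -0.18 and -0.27 in the bins of the longest genes. The spread that the list medians of axonal kinesins show between libraries moves with this trend, and its part in them was not tested.

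**Figure D5:**
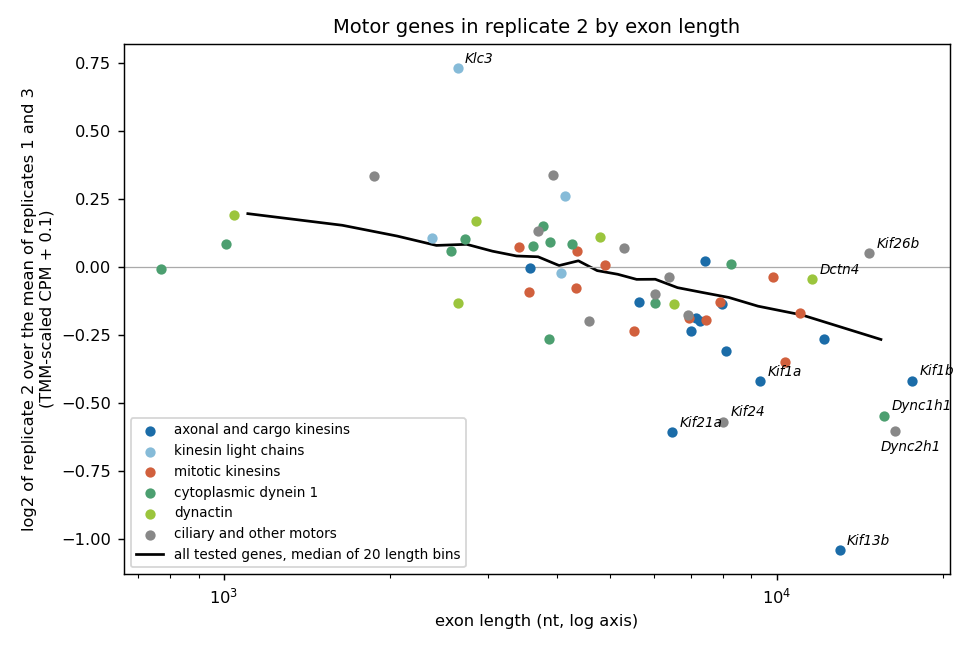
Log2 of replicate 2 over the mean of replicates 1 and 3 (TMM-scaled CPM + 0.1) against exon length (nt, log axis) for the 58 motor genes tested, coloured by role. The line gives medians of all tested genes in 20 length bins, from 0.20 in the shortest to -0.27 in the longest bin, and Kif13b lies furthest below it at -1.04.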

How the data were processed

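Poly(A) RNA of 3 libraries of 1 group was used. Per the labels' protocols, libraries were made with a directional kit after poly(A) selection. The submitters' processing notes name STAR and mm10; no source used here gives a counting tool, annotation or strand setting. The table the authors deposited holds unscaled estimated counts by gene symbol, with 1.76 to 1.98% of values fractional (beyond 0.01 of a whole number). Counts were rounded. The 27 rows named by dates were left out, holding 54360, 41180 and 43495 counts.

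CPM was the count over the library total of 13942014 to 17731376; intervals and floors (3 counts) cover counting error only. Exon lengths came from GENCODE M21 (mm10): 24033 named genes matched, 683 through RefSeq synonyms, and all 67 members. Log2 values had 0.1 added. Variation was tested with an intercept-only edgeR 4.0.16 fit (R 4.3.3, TMM, filterByExpr, trended dispersion), comparing each deviance with a chi-square of 2 degrees of freedom. It was checked on simulated counts with 200 genes lowered in 1 library each. The test recovered 2% of them at 1.5-fold, 44.5% at 2-fold and 89.5% at 4-fold, so smaller differences between replicates are mostly missed. DESeq2 1.42.0 and Python 3.11.15 (pandas 2.3.3) were also used. Members, lists, pairs and motifs were chosen with earlier results of these data known. In full are given the 5 highest genes of each role, dynein 1 and dynactin genes, both genes of each pair, called members, the 3 highest partners of each list, and Cenpe; further members were named with their list, and overlapping genes where at least 10% of exon was shared (1 such overlap is not reported here). Alternatives covered detection, scaling, length, pseudocount, filter, dispersion and leaving out each replicate.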

Additional observations from a re-analysis of the deposited data

Results flagged for a closer look

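Data outside the measurement were the 27 rows named by calendar dates, which held 139034 estimated counts over the 3 libraries, above the 3 counts per library that a count of 0 allows. No motor gene symbol has the form of a date. Outlying single libraries were not tested for, since the group had 3 samples.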

How the results depend on the processing

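The count of detected members (57) stayed between 52 and 59 under other minimums, scalings and without each replicate. The axonal minus mitotic median (-0.79) was within its spread in CPM not per length, at -0.057 ± 0.089 (SD, n = 3). It was -1.18 per kilobase of the longest transcript and -1.47 with means in place of medians, and from -0.94 to -0.66 without each replicate. Summing Kifc1 with Kifc5b, chosen after seeing the data, gave -0.82. The 1 member called for variation became 0 with the DESeq2 dispersion trend (3 members at an unadjusted p under 0.05) and 0 with the length trend removed, also added after seeing the data (2 members at an unadjusted p under 0.05), and between 0 and 1 without each replicate; the cause was not tested. Of 22 pairs, 21 had 1 sign in all libraries, and 20 to 22 under the alternatives. In CPM not per length, Kif3b over Kif3a reversed to 0.11 and Dync1li2 over Dync1li1 to 0.31, because of the division by length. Over 132 combinations of pair and alternative, 86 stayed within 1 SD, 44 moved further and 2 reversed. For pairs whose ratio was within 2 SD of 0 the sign changed in 5 combinations, among them Kif13b over Kif13a (0.23) and Kifc1 over Kif11 (-1.11) in CPM not per length. No paired analysis was possible because there was 1 group. Depth limits genes with few counts, such as Kif17 and Kif16b.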
